A study of Mus musculus with 6 samples.

Results

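17-AAG was compared with its solvent DMSO by RNA sequencing. The cells were E0771, a breast cancer line from C57BL/6 mice. It takes in every gene of the authors' deposited 17-AAG table with 1 FPKM (fragments scaled to transcript length and to the fragments of the library) or more in either group, which were 10795 of the 11305 genes listed. The largest value below that floor was 0.998 FPKM and the smallest at or above it was 1.001 FPKM. Cells of the 17-AAG group had grown for 48 h in multi-well plates and received 17-AAG at 0.5 µM for 24 h. Cells of the DMSO group had grown for 48 h in the same medium and received DMSO, for a time that the labels do not state, so a difference in exposure time and the compound itself cannot be told apart. Each group had 2 libraries, and the deposited table gives 1 value per gene and group, pooled by the authors. No standard deviation or n can therefore stand beside a value, and the depth of each library is unknown. Nothing in the labels says that the libraries stem from separate cultures. The authors' p-values then rest on these libraries only, and the spread between them may be technical.

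HSP90 is an abundant cytosolic chaperone that keeps kinases, steroid receptors and other client proteins in an active fold, with the help of cochaperones that set its ATP cycle. 17-AAG, a derivative of geldanamycin, occupies its ATP pocket, after which many clients are degraded as proteins. HSP90 also holds the transcription factor HSF1 inactive, and inhibitors are known for raising transcripts of the heat shock response. The series concerns HSP90 inhibition and immune activation in these tumour cells, so the comparison asks how chaperone, client pathway and immune transcripts stood after 17-AAG.

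The size of a change is given as the effect, log2((17-AAG + 1)/(DMSO + 1)) computed from the 2 FPKM values, so that a positive effect means a higher level with 17-AAG and changes of low genes are understated. A gene is said to have risen or fallen where the q-value of the authors' deposited table, their p-value adjusted over the whole table, was under 0.05. Standard errors are those of the plain log2 ratio implied by the authors' p-value, and for the 1220 genes at the lowest p they are upper limits. Their median was 0.15 for genes averaging 10 to 100 FPKM and 0.26 for genes of 1 to 2 FPKM.

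Epithelial markers were sparse in these cells. Of 9 markers of luminal mammary epithelium the table lists 4 (Krt8, Epcam, Esr1 and Foxa1), with a summed level of 33.4 FPKM with 17-AAG and 22.9 FPKM with DMSO, nearly all of it from Krt8 at 29.3 FPKM with 17-AAG and 19.3 FPKM with DMSO. Of 6 basal markers only Acta2 is listed, at 169 FPKM with 17-AAG and 146 FPKM with DMSO (not called), and Krt5, Krt14 and Trp63 are not. Of a wider list of 15 basal markers 4 reached 1 FPKM, of which 3 fell and 0 rose. Their summed level was 2383 FPKM with 17-AAG and 3257 FPKM with DMSO. Of 6 fibroblast markers 4 are listed, with sums of 94.5 and 86.8 FPKM for 17-AAG and DMSO. Of a wider list of 15 fibroblast markers 5 reached 1 FPKM, of which 2 rose and 1 fell. Their sums ran the other way, at 973 FPKM with 17-AAG and 1782 FPKM with DMSO. The mesenchymal filament gene Vim stood at 2154 FPKM with 17-AAG and 3009 FPKM with DMSO. Of 6 myeloid markers Lyz2 and Cd68 are listed, with a sum of 32.9 FPKM with 17-AAG and 54.9 FPKM with DMSO, while Ptprc, Csf1r, Itgam and Tyrobp are not listed. None of the 4 lymphocyte, 4 endothelial and 3 adipocyte markers is listed. In a bulk sample fewer cells of a type and less RNA per cell cannot be told apart.

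Of the 10795 genes 1632 rose and 1796 fell, 15.1% and 16.6% of all genes tested and 31.8% together, and 4469 genes (41.4%) had an unadjusted p under 0.05. Most changes were small. The median effect was 0.52 among genes that rose and -0.53 among genes that fell, and 5% of all genes lay below -0.66 and 5% above 0.67. An effect of 1 or more in size was reached by 157 genes that rose (1.45%) and 104 that fell (0.963%), and an effect of 2 or more by 11 and 12. Another 34 genes had an effect of 1 or more in size and were not called, among them transcripts listed at 0 in one group. With 17-AAG 95 genes were under 1 FPKM and with DMSO 332 were, of which 38 and 199 were called. Such genes entered only through the group in which they were high, so their calls are no evidence that changes leaned one way. That holds for such members of the gene groups below too.

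**Figure D1:**
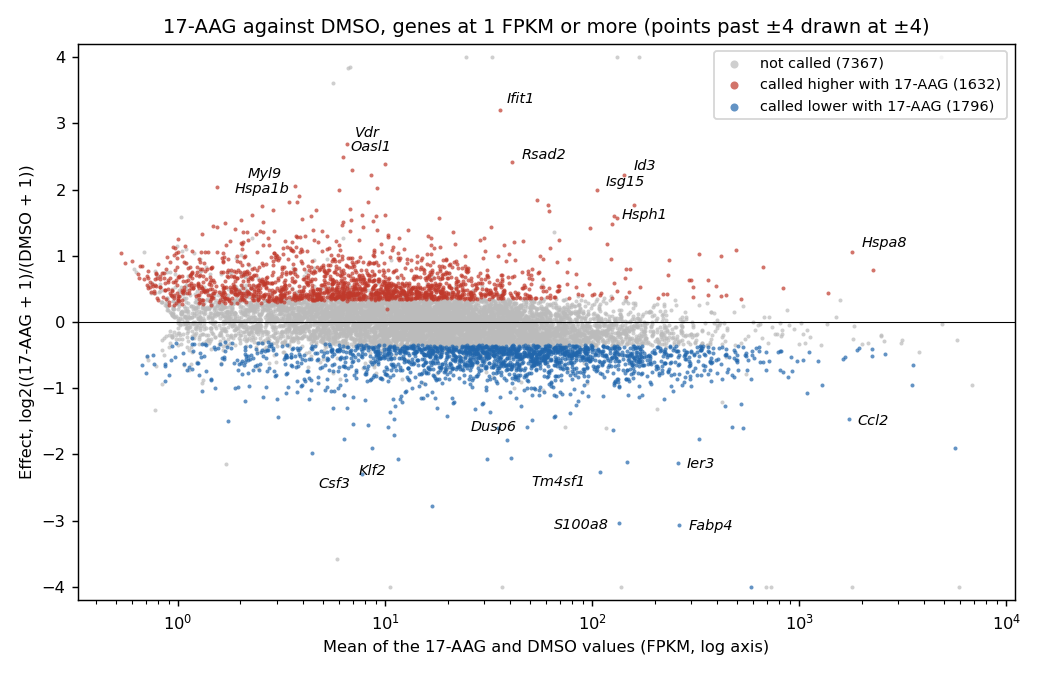
Effect of 17-AAG (vertical axis, log2 with a pseudocount of 1) against the mean of both groups in FPKM (horizontal log axis) for 10795 genes, with 1632 genes that rose in red, 1796 that fell in blue and the rest in grey. Ifit1 (3.20) and Vdr (2.68) stand at the top, and Fabp4 (-3.06) and S100a8 (-3.04) at the bottom; points beyond 4 in size are drawn at the edge.

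The direction of change varied with transcript length and level across all genes. Genes were split into 10 equal bins. In the bin with the shortest transcripts (median 1003 bases) 7.36% rose and 34.6% fell, with a median effect of -0.29, and in the bin with the longest (median 8039 bases) 27.7% rose and 5.04% fell, with a median effect of 0.16. In the lowest bin by mean level 31.2% rose and 7.41% fell, and in the highest 4.26% rose and 39.8% fell. The summed FPKM of all members was 0.834 times as large with 17-AAG as with DMSO. How far the authors' normalization or the libraries' RNA quality takes part in this gradient was not tested. For most gene groups the median is therefore also given after the median effect of genes in the same bin of length and the same bin of level was taken off, called the matched median here. The genes of a group are themselves among the genes of its bins, which draws the matched median of large, alike groups towards none.

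**Figure D2:**
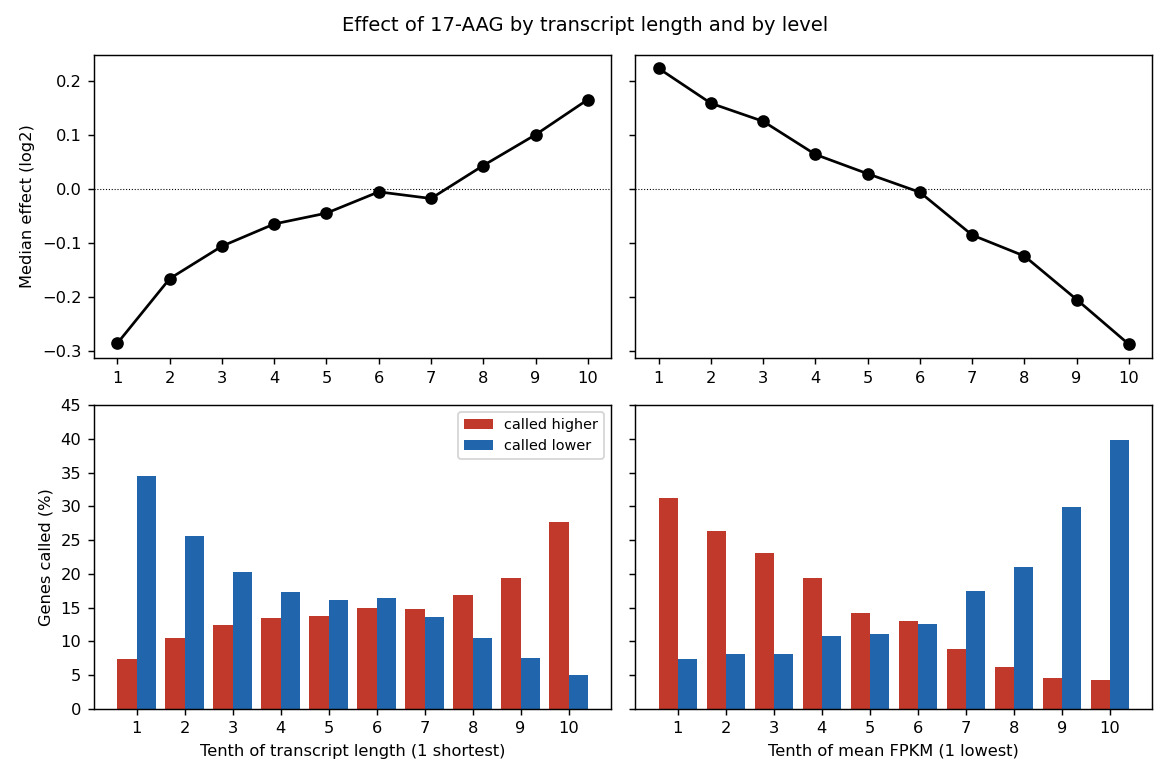
Median effect (upper panels, log2) and percentage of genes that rose or fell (lower panels) in 10 equal bins of transcript length (left) and of mean FPKM (right). Across the bins the median runs between -0.29 and 0.16 by length and between 0.22 and -0.29 by level.

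The gene groups described here are lists of known function, some of which share members, and each count should be read against the 15.1% of all genes that rose and the 16.6% that fell. The plot of effects by list shows 17 of them side by side.

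**Figure D3:**
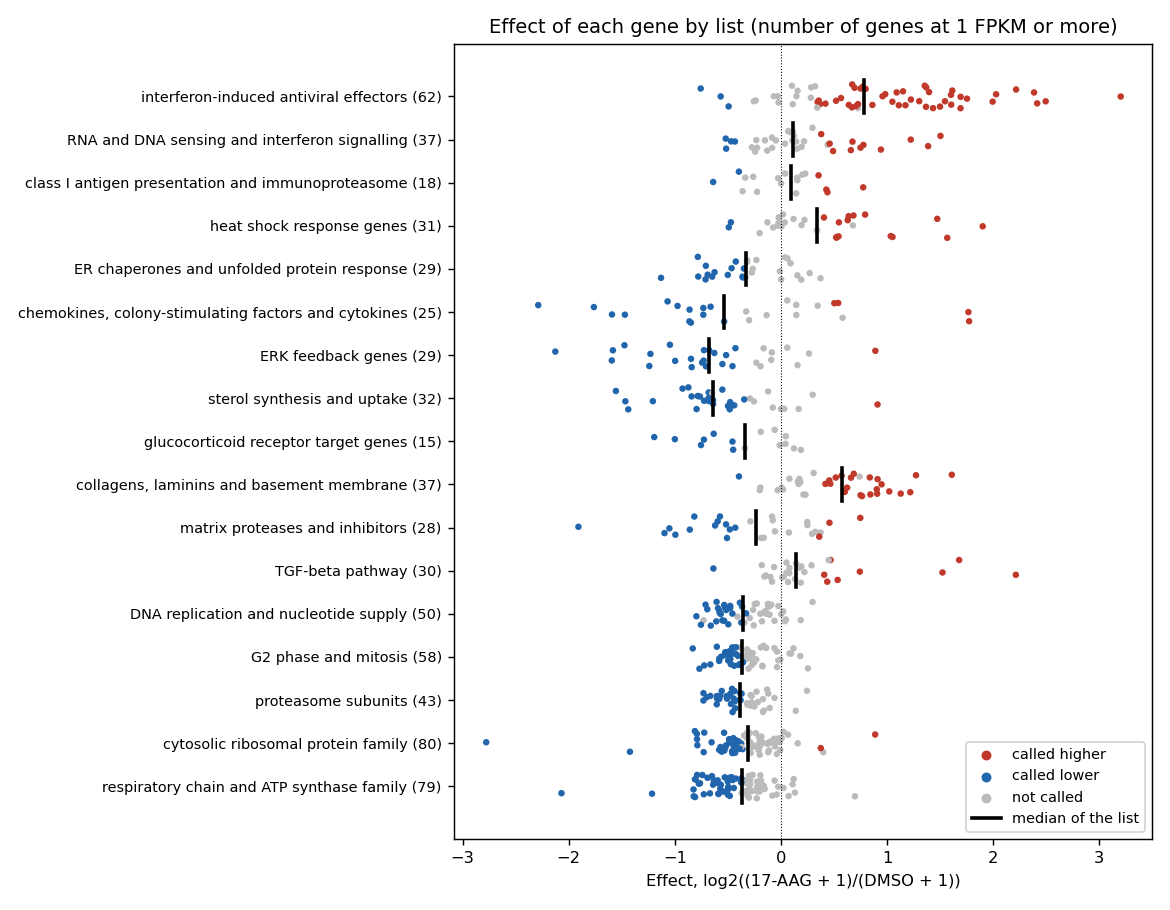
Effect of each gene (horizontal axis, log2) in 17 gene groups, with the number of genes in brackets, genes that rose in red, genes that fell in blue and the group's median as a black bar. Interferon-induced effectors (median 0.78) and collagens and laminins (0.57) lie to the right and ERK feedback (-0.68) and sterol genes (-0.64) to the left; the ribosomal protein median of -0.31 turns to 0.06 after matching for length and level.

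Heat shock genes leaned upwards. Of 31 genes in this list, 14 rose, 2 fell and 15 were not called, with a median effect of 0.34 and a matched median of 0.52. The largest effects were those of Hspa1b (1.90, an inducible HSP70 with a near-identical neighbour, so uncertain), Cryab (1.57, a small heat shock protein) and Hsph1, an HSP110 that recharges HSP70 with ATP. Hsph1 stood at 184 FPKM with 17-AAG and 65.8 FPKM with DMSO, an effect of 1.47. Smaller rises were seen for Dnajb4, a J-domain protein (0.55), Bag3, which links HSP70 to autophagy (0.52), and the mitochondrial chaperonin pair Hspd1 (0.63) and Hspe1 (0.54). Ubb, a ubiquitin gene, fell (-0.49), as did Zfand2a (-0.47). Several genes often used as heat shock markers were not called. Dnajb1, which starts the HSP70 cycle, had 47.6 FPKM with 17-AAG and 46.4 FPKM with DMSO and an effect of 0.04, and Hsf1 itself had an effect of 0.19. The small heat shock gene Hspb8 was at -0.03. Across 37 J-domain genes 2 rose and 8 fell, with a median of -0.10 (matched -0.09).

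HSF1 binds inverted repeats of GAA in promoters, and the windows of RefSeq promoter sequence (build GRCm38.p6, 250 bases before to 50 bases after a gene's start) were searched on both strands for the heat shock element GAANNTTCNNGAA, whose reverse complement is TTCNNGAANNTTC. Of the 10795 genes, 8073 were matched by symbol to a window. The element was present for 4 of 9 heat shock genes that rose and have a window (Hsph1, Hspd1, Hspe1 and Chordc1), for 0 of 2 that fell and for 1 of 14 that were not called, Dnajb6, against 0.607% of the 8073 genes. Hspd1 and Hspe1 are divergent neighbours whose windows overlap and hold the same copies. The windows of the 2 genes of the list with the largest rise that hold an element are shown, with the element in capitals: Hsph1 at chr5:149636287-149636586 and Hspd1 at chr1:55087883-55088182, both from the minus strand and each 1 of 2 windows RefSeq gives for its gene.
Hsph1: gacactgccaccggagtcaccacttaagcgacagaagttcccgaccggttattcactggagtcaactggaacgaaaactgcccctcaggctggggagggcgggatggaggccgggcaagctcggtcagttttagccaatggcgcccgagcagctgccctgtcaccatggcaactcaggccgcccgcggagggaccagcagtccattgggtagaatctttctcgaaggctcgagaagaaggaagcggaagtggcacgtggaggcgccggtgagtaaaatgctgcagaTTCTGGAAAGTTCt
Hspd1: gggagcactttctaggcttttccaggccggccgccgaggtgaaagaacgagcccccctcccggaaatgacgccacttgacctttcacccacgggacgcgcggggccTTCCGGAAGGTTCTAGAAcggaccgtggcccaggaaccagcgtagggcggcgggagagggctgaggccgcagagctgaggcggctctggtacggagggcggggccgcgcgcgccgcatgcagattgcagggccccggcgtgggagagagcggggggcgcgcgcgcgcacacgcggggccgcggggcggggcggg
In the Hsph1 window the element begins at base 37 of the transcript, and in the Hspd1 window 2 overlapping copies begin 144 and 139 bases before the start. A match describes the letters of the window and not the binding of a factor.

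HSP90 and its helpers changed little as a group. Of 35 HSP90 and cochaperone genes 7 rose and 4 fell, with a median effect of -0.01 (matched 0.11). Both cytosolic forms rose, the inducible Hsp90aa1 to 367 FPKM with 17-AAG against 236 FPKM with DMSO and the constitutive Hsp90ab1 to 2892 FPKM with 17-AAG against 1668 FPKM with DMSO, while Hsp90b1 of the endoplasmic reticulum (-0.32) and mitochondrial Trap1 (-0.11) were not called. Ahsa1, which speeds the ATP cycle of HSP90, rose (0.52), as did St13, an HSP70 partner (0.35), Chordc1 (0.41), Fnip2 (0.36) and Tsc1 (0.43), which binds HSP90 and is better known for restraining mTOR. Sugt1 (-0.39), Ruvbl2 (-0.39) and Bag1 (-0.37, which turned to 0.11 after matching) fell. Cdc37, which brings kinases to HSP90, Ptges3 (p23) and Fkbp4 had effects of -0.06, 0.09 and -0.02 and were not called. Of 15 genes of the cytosolic chaperonin and of prefoldin 0 rose and 5 fell. Those that fell were the prefoldin genes Pfdn4 (-1.05), Vbp1 (-0.63), Pfdn5 (-0.55) and Pfdn1 (-0.53) and the cofactor gene Pdcl (-0.43), whereas the chaperonin subunits lay between -0.18 (Cct4) and 0.08 (Cct2). The list's median of -0.18 became 0.05 after matching.

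Most transcripts of HSP90's client proteins were not called, and those that were called moved in both directions. Of 17 client receptor tyrosine kinases 6 rose and 1 fell (median 0.27, matched 0.18). Ddr1, a collagen receptor, stood at 17.2 FPKM with 17-AAG and 10.3 FPKM with DMSO, Insr at 9.72 FPKM with 17-AAG and 5.94 FPKM with DMSO and Igf1r at 7.73 FPKM with 17-AAG and 4.70 FPKM with DMSO, and all of these rose, as did Fgfr1 (0.49), Erbb3 (0.56) and Pdgfrb (0.39). Met, the receptor of hepatocyte growth factor, was the only member of this list that fell, at 26.5 FPKM with 17-AAG and 34.7 FPKM with DMSO. Egfr was not called (0.03), and Erbb2 (0.41) was not called either and shares its locus with another gene, so it is uncertain. Of 39 client kinases and transcription factors 2 rose, 5 fell and 32 were not called (median -0.08, matched -0.02). Trp53 rose (0.51), Cdk1 (-0.60), Lyn (-0.58), Akt2 (-0.45) and Chek1 (-0.40) fell, and Akt1 (-0.23), Cdk4 (-0.08) and Hif1a (-0.24) were not called. These are RNA levels, and the client proteins themselves were not measured.

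Among steroid and xenobiotic receptors, whose ligand-binding form is held by HSP90, the readouts differed. The glucocorticoid receptor gene Nr3c1 was level (26.4 FPKM with 17-AAG and 26.6 FPKM with DMSO). Of 15 target genes of that receptor 0 rose and 7 fell (median -0.34, matched -0.28). Lcn2, an iron-siderophore binder, stood at 51.5 FPKM with 17-AAG and 119 FPKM with DMSO, Tsc22d3 (GILZ) at 8.68 FPKM with 17-AAG and 18.4 FPKM with DMSO and Sgk1 at 11.4 FPKM with 17-AAG and 19.99 FPKM with DMSO, and all of these fell, along with Errfi1 (-0.73), Per2 (-0.63), Dusp1 (-0.46) and Fkbp5 (-0.45). Per2 stood at 0.459 FPKM with 17-AAG and 1.26 FPKM with DMSO. It entered only through DMSO, so its fall adds no evidence. Other targets did not follow: Klf9, Per1 and Mt1 had effects of 0.12, 0.05 and 0.19 and were not called, and Lcn2, Errfi1 and Dusp1 also belong to other lists used here. Ahr is not listed. Of 5 target genes of the aryl hydrocarbon receptor Nqo1, a quinone reductase that also reduces 17-AAG, was the only one called, at 41.97 FPKM with 17-AAG and 81.5 FPKM with DMSO.

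The vitamin D receptor gene Vdr (mm9 chromosome 15, 97684857 to 97738727) had the second largest rise of any gene that reached 5 FPKM, to 12.1 FPKM with 17-AAG against 1.04 FPKM with DMSO, an effect of 2.68 (plain log2 ratio 3.54, implied standard error at most 0.87). Of 9 vitamin D and retinoid response genes 3 rose and 0 fell. Besides Vdr these were Dhrs3, a retinaldehyde reductase (1.12), and Crabp2 (0.76), both under 2 FPKM in each group. With DMSO Dhrs3 (0.241 FPKM) and Crabp2 (0.609 FPKM) were below the floor and entered only through 17-AAG, so their rises add no evidence. In the nuclear receptor family as a whole 7 of 24 rose and 1 fell, among them the liver X receptor gene Nr1h3, at 9.77 FPKM with 17-AAG and 4.73 FPKM with DMSO, and Nr4a2 (0.86). The retinoid receptors Rara, Rarg and Rxra were not called, with effects of 0.24, 0.16 and 0.21.

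Chaperones of the endoplasmic reticulum fell or were not called. Of 29 genes of the unfolded protein response 0 rose and 14 fell, with a median effect of -0.33 and a matched median of -0.16. Sdf2l1, an HSP40 partner in the reticulum, stood at 22.1 FPKM with 17-AAG and 49.6 FPKM with DMSO and the transcription factor gene Xbp1 at 35.6 FPKM with 17-AAG and 61.8 FPKM with DMSO. The disulfide isomerase gene Pdia6 fell to 343 FPKM with 17-AAG against 560.1 FPKM with DMSO, and Hspa5, the reticulum's HSP70 (BiP), to 290.2 FPKM with 17-AAG against 372 FPKM with DMSO. Creld2 (-0.71), Manf (-0.65) and Edem1 (-0.50) fell as well. Calr, Canx and Herpud1 were not called, with effects of 0.00, 0.16 and 0.19. The integrated stress response list split. Of 35 genes 10 rose and 6 fell (median 0.09, matched 0.11). Stress regulators were among those that rose: Ddit3 (CHOP, 1.13) and Atf5 (1.30), both uncertain for shared loci, Ppp1r15a, which reverses eIF2-alpha phosphorylation (0.71), Ddit4 (0.64) and Atf3 (0.63). Enzymes of serine and one-carbon supply were among those that fell: Mthfd2 (-0.69), Psat1 (-0.63) and Psph (-0.56), with asparagine synthetase Asns (-0.49). Atf4 itself was not called (299.8 FPKM with 17-AAG and 375 FPKM with DMSO).

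Among the lists and families of 10 or more genes, interferon-induced genes were among those with the largest share of risen members, beside the collagen family (10 of 14). Of 78 antiviral effectors on the list 65 are in the table and 62 reached 1 FPKM, of which 45 rose and 3 fell. Their median effect was 0.78 (matched 0.81), and 27 of them rose by an effect of 1 or more, out of 157 such genes in all. These counts include members under 1 FPKM with DMSO, such as Mx1 (0.617 FPKM). Such members entered only through 17-AAG, so their rises add no evidence. Type I interferons act through receptors and factors that include STAT2 and IRF9 on a promoter element found in such genes, whose products block viral RNA, translation and release. Ifit1 (mm9 chromosome 19, 34715378 to 34724499), which binds foreign RNA caps, had the largest rise of any gene that reached 5 FPKM, to 65.2 FPKM with 17-AAG against 6.19 FPKM with DMSO (plain log2 ratio 3.40, implied standard error at most 0.84). Rsad2 (viperin) stood at 70.03 FPKM with 17-AAG and 12.3 FPKM with DMSO, the ubiquitin-like modifier gene Isg15 at 169 FPKM with 17-AAG and 41.6 FPKM with DMSO and Ifit2 at 48.1 FPKM with 17-AAG and 17.2 FPKM with DMSO. These 4 genes were the most abundant of those that rose by an effect of 1 or more in this list.

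The window search was repeated with the interferon-stimulated response element GAAANNGAAA and its reverse complement TTTCNNTTTC. It was present for 22 of the 36 antiviral genes that rose and have a window (61.1%), for 1 of 3 that fell and for 3 of 12 that were not called, against 3.69% of the 8073 genes and 3.44% of all 32851 windows. None of the windows of those 22 genes overlaps that of another. Over all genes it was present for 22 of 103 that rose by an effect of 1 or more (21.4%) and 4 of 74 that fell as far (5.41%). The genes that rose so far include members of the antiviral list counted before, such as Ifit1, Rsad2 and Isg15, so these shares are not independent. The windows of Ifit1 (chr19:34640639-34640938, plus strand) and Rsad2 (chr12:26456403-26456702, minus strand), the members with the largest effect among those that hold an element, are shown with the element in capitals.
Ifit1: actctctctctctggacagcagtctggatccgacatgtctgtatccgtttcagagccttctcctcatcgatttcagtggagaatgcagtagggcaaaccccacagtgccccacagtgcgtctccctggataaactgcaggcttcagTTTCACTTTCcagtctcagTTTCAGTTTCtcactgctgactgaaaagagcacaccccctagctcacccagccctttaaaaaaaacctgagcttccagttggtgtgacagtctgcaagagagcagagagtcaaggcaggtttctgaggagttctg
Rsad2: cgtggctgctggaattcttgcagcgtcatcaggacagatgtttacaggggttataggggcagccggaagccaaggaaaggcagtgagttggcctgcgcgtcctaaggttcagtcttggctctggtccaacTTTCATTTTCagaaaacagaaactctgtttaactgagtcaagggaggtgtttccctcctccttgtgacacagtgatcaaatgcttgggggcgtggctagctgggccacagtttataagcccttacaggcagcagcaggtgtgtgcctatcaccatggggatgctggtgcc
In the Ifit1 window 2 copies begin 104 and 85 bases before the start, and in the Rsad2 window 1 copy begins 120 bases before it. These are again matches of letters only.

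The rise covered several classes of effector. Among oligoadenylate synthetases and their relatives, which sense double-stranded RNA, Oasl1 (2.50), Oasl2 (2.03), Oas1b (1.69) and Oas3 (0.80) rose and Oas1a did not pass (0.29). The dynamin-like GTPase genes Mx1 and Mx2 stood at 4.45 FPKM with 17-AAG and 0.617 FPKM with DMSO and at 3.49 FPKM with 17-AAG and 0.539 FPKM with DMSO, low levels for their effects of 1.75 and 1.55. Mx1, Mx2 and Oas1b (0.825 FPKM with DMSO) were below the floor with DMSO and entered only through 17-AAG, so their rises add no evidence. All 8 guanylate-binding and immunity-related GTPase genes at 1 FPKM or more rose, with a median effect of 1.26 (matched 1.18); Gbp5 was at 9.52 FPKM with 17-AAG and 2.79 FPKM with DMSO and Igtp at 5.72 FPKM with 17-AAG and 1.72 FPKM with DMSO. The apolipoprotein L genes Apol9a (2.39) and Apol9b (2.22) are near-identical copies and uncertain. Usp18, which removes ISG15 from proteins and damps interferon receptors, rose to 15.5 FPKM with 17-AAG against 4.39 FPKM with DMSO, and Herc6, the ligase that attaches it, to 31.1 FPKM with 17-AAG against 11.5 FPKM with DMSO. Of 33 TRIM genes, which include antiviral ubiquitin ligases, 17 rose and 1 fell (median 0.33, matched 0.29), with Trim30a (1.09), Trim12c (1.07), Trim56 (0.80) and Trim25 (0.73) among them. The exceptions in the effector list were Ifitm3, a membrane protein that blocks virus entry, at 619 FPKM with 17-AAG and 1047 FPKM with DMSO, Slfn2 (-0.57) and Plscr1 (-0.49), which fell. The kinase gene Eif2ak2 (PKR) and Samhd1 were not called, with effects of 0.15 and 0.11.

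Of 37 genes of RNA and DNA sensing and interferon signalling 11 rose and 4 fell, a share of risen genes well below that of the effectors (median 0.11, matched 0.02). The cytosolic RNA sensors rose together: Ifih1 (MDA5) to 9.76 FPKM with 17-AAG against 2.79 FPKM with DMSO, Ddx58 (RIG-I) to 31.4 FPKM with 17-AAG against 18.3 FPKM with DMSO and Dhx58 (LGP2) to 19.98 FPKM with 17-AAG against 9.92 FPKM with DMSO. Components of the factor that binds the element above rose too, Stat2 to 13.6 FPKM with 17-AAG against 4.58 FPKM with DMSO and Irf9 to 22.03 FPKM with 17-AAG against 15.7 FPKM with DMSO, as did Irf1 (1.22) and Irf7 (0.78). The adaptors and kinases between sensors and these factors were not called. Mavs had an effect of 0.22, Tmem173 (STING) of -0.05, Tbk1 of -0.08 and Irf3 of -0.13. The receptor genes Ifnar1 (-0.15) and Ifnar2 (-0.23) were not called, while Ifngr2 (-0.43), Irf8 (-0.52), the DNA sensor gene Aim2 (-0.47) and Socs3 (-0.52) fell. The interferon gene Ifnb1 is not listed. The 2 listed myeloid markers went apart, with Lyz2 at 15.8 FPKM with 17-AAG and 13.3 FPKM with DMSO (not called) and Cd68 at 17.1 FPKM with 17-AAG and 41.6 FPKM with DMSO (fell), and the part of such cells in the rise of interferon genes was not tested.

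**Figure D4:**
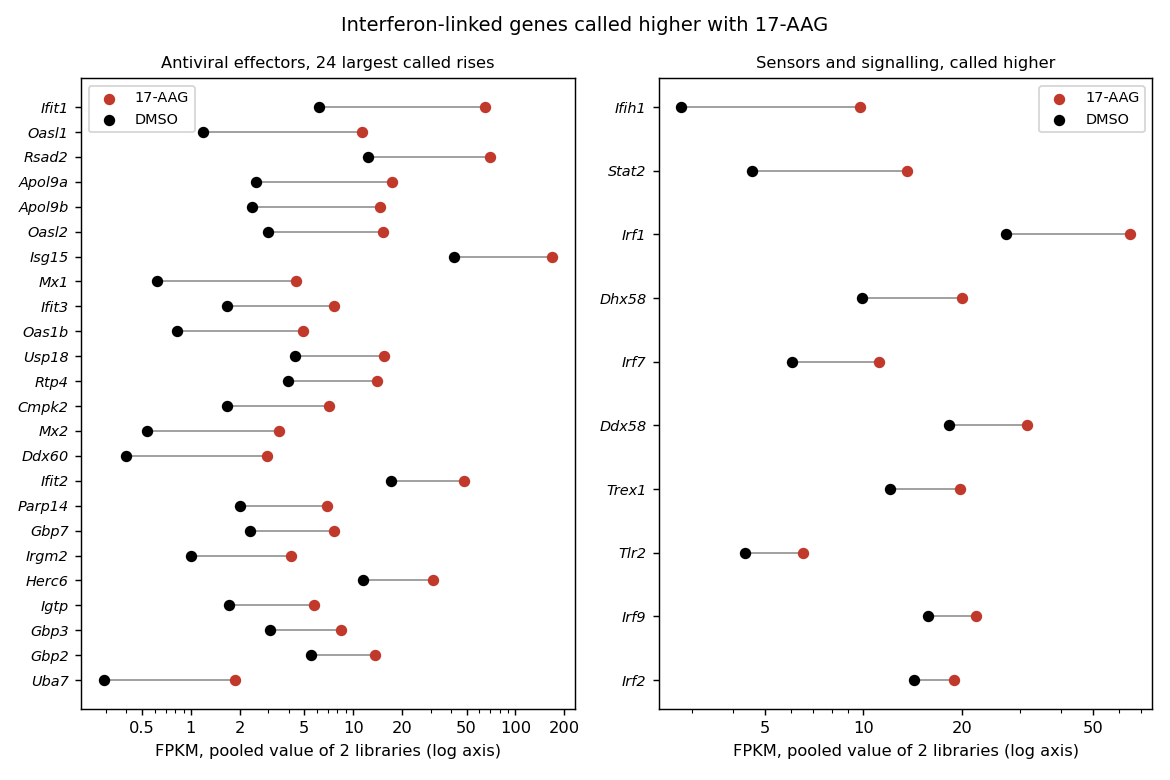
FPKM of each gene with 17-AAG (red) and DMSO (black), pooled over 2 libraries, on log axes, for the 24 antiviral effectors with the largest rise (left) and sensing and signalling genes that rose (right). Ifit1, Rsad2 and Isg15 lie at 65.2, 70.0 and 169 FPKM with 17-AAG, and several others, such as Mx1, lie below 1 FPKM with DMSO.

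Antigen presentation did not follow the effectors as a group. Of 18 genes of the class I pathway and immunoproteasome 4 rose and 2 fell (median 0.09, matched 0.23). The peptide transporter gene Tap2 rose to 31.4 FPKM with 17-AAG against 17.9 FPKM with DMSO, and Tapbp (0.44) and the trimming peptidase gene Erap1 (0.35) rose with it. The class I heavy chain gene H2-K1 fell to 42.6 FPKM with 17-AAG against 66.9 FPKM with DMSO, and its light chain B2m fell to 1671 FPKM with 17-AAG against 2199 FPKM with DMSO, an effect of -0.40 that turned to 0.086 after matching for length and level. H2-D1 (-0.26), Tap1 (0.14), Psmb8 (0.23), Psmb9 (-0.36) and the transactivator gene Nlrc5 (0.15) were not called. Class I heavy chain genes are close copies of one another, which makes H2-K1 and H2-D1 uncertain.

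Chemokines moved in both directions, and mostly down. Among 25 genes for chemokines and cytokines 4 rose and 13 fell (median -0.54, matched -0.41). Ccl5, which draws T cells, rose to 247 FPKM with 17-AAG against 71.8 FPKM with DMSO, and Cxcl10, a ligand of CXCR3, rose to 95.1 FPKM with 17-AAG against 27.1 FPKM with DMSO. The monocyte attractant Ccl2 fell to 917 FPKM with 17-AAG against 2544 FPKM with DMSO and its neighbour Ccl7 to 235 FPKM with 17-AAG against 711 FPKM with DMSO. Neutrophil attractants and growth factors were also lower: Cxcl1 (-0.85), Cxcl2 (-0.86), Csf3 (-2.29) and Csf2 (-1.07) fell, as did Ccl3 (-1.76) and Ccl20 (-0.97). Il6 (0.14) and Csf1 (0.35) were not called, and Il15 (0.54) rose at under 2 FPKM. Among 25 NF-kB subunits and feedback genes 5 rose and 5 fell. Nfkbia (0.04), Tnfaip3 (-0.08), Rela (0.13) and Nfkb1 (0.02) were not called, Map3k14 (NIK, 1.06), Nfkbie (0.92) and Icam1 (0.77) rose, and Traf1 (-0.75), Sod2 (-0.56) and Ptgs2 (-0.45) fell.

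Of 16 immune checkpoint and recognition molecules 3 rose and 8 fell (median -0.26, matched -0.19). Nt5e (CD73), which makes adenosine, fell to 12.3 FPKM with 17-AAG against 30.2 FPKM with DMSO, and Pvr (CD155), a ligand of TIGIT and DNAM-1, to 37.7 FPKM with 17-AAG against 79.7 FPKM with DMSO. The NKG2D ligand genes Raet1d (-1.10) and Raet1e (-0.98) fell and share their locus, so they are uncertain. Cd40 (-0.77) and Cd47 (-0.49) fell, and Anxa1 (-0.72) did as well. Cd274 (PD-L1) rose to 2.93 FPKM with 17-AAG against 2.02 FPKM with DMSO and Icosl, the ligand of ICOS, to 11.1 FPKM with 17-AAG against 5.54 FPKM with DMSO. Of 13 complement and acute phase genes 7 rose and 3 fell (median 0.55, matched 0.35). The central complement gene C3 rose to 42.7 FPKM with 17-AAG against 17.03 FPKM with DMSO. Of the proteases that start the classical pathway, C1s rose to 32.4 FPKM with 17-AAG against 17.99 FPKM with DMSO, and C1ra to 10.9 FPKM with 17-AAG against 6.29 FPKM with DMSO. Lcn2 (-1.19) and Saa3 (-0.55) fell.

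Genes that the ERK pathway induces mostly fell. The list called ERK feedback here holds genes that restrain the pathway and also EGF receptor ligands, ETS factors and cyclin D1. Of 29 ERK feedback genes 20 fell and 1 rose, with a median effect of -0.68 and a matched median of -0.63. Kinases and receptors upstream of ERK are HSP90 clients, and the dual-specificity phosphatases and Sprouty proteins in this list switch the pathway off. Dusp6, the phosphatase of cytosolic ERK, fell to 26.6 FPKM with 17-AAG against 75.7 FPKM with DMSO. Dusp4 fell to 34.6 FPKM with 17-AAG against 70.1 FPKM with DMSO, and Dusp5 to 7.85 FPKM with 17-AAG against 17.3 FPKM with DMSO. Ier3, an early response gene, fell to 95.8 FPKM with 17-AAG against 422 FPKM with DMSO. The ETS factor genes Etv4 (-1.23) and Etv5 (-0.84) fell, as did the Sprouty genes Spry4 (-0.74) and Spry2 (-0.55). Ligands of the EGF receptor were part of the fall, with Areg at 17.03 FPKM with 17-AAG and 53.4 FPKM with DMSO, Ereg at 23.8 FPKM with 17-AAG and 73.5 FPKM with DMSO and Hbegf at 12.2 FPKM with 17-AAG and 20.5 FPKM with DMSO. Ccnd1, cyclin D1, fell to 79.1 FPKM with 17-AAG against 127 FPKM with DMSO. The exception was Dusp8, a phosphatase of stress kinases, which rose to 3.60 FPKM with 17-AAG against 1.48 FPKM with DMSO; the Spred genes Spred1 (-0.23) and Spred2 (-0.09) were not called.

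Immediate early and AP-1 genes showed no such common direction, with 5 of 25 risen and 7 fallen (median -0.04, matched -0.09). Klf2, a factor linked to quiescence, fell to 3.82 FPKM with 17-AAG against 19.2 FPKM with DMSO, and Maff (-0.81), Fosl1 (-0.90, shared locus), Jun (-0.46) and Junb (-0.38) fell. Fosl2 (0.80), Nr4a2 (0.86), Klf4 (0.66) and Atf3 (0.63) rose, and Myc was not called (178 FPKM with 17-AAG and 145 FPKM with DMSO).

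Sterol genes fell from one end of the pathway to the other. Of 32 genes of sterol synthesis and uptake 22 fell and 1 rose, with a median effect of -0.64 and a matched median of -0.65. SREBP2 drives these genes when sterols in the endoplasmic reticulum run low, and INSIG proteins hold it back. In the mevalonate stretch Mvd fell to 7.07 FPKM with 17-AAG against 12.9 FPKM with DMSO, and Fdps, farnesyl diphosphate synthase, to 3.69 FPKM with 17-AAG against 12.8 FPKM with DMSO. Fdft1, squalene synthase, had an effect of -0.65 and was not called (shared locus, uncertain). After squalene, Sqle (-0.64), Cyp51 (-0.84), Sc4mol (-1.44) and Dhcr7 (-0.87) fell. Of the regulators, Srebf2 fell to 27.8 FPKM with 17-AAG against 53.8 FPKM with DMSO, and Insig1 to 12.7 FPKM with 17-AAG against 30.5 FPKM with DMSO. The oxysterol receptor gene Nr1h3 rose (0.91), and its target Abcg1, a sterol exporter (0.30), the SREBP escort gene Scap (0.00) and Npc1 (0.03, shared locus) were not called. A sterol regulatory element, TCACNCCAC or its reverse complement GTGGNGTGA, was found in the windows of 0 of 20 genes of this list and in 1.35% of the 8073 genes, which says only that these letters are not in those windows.

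**Figure D5:**
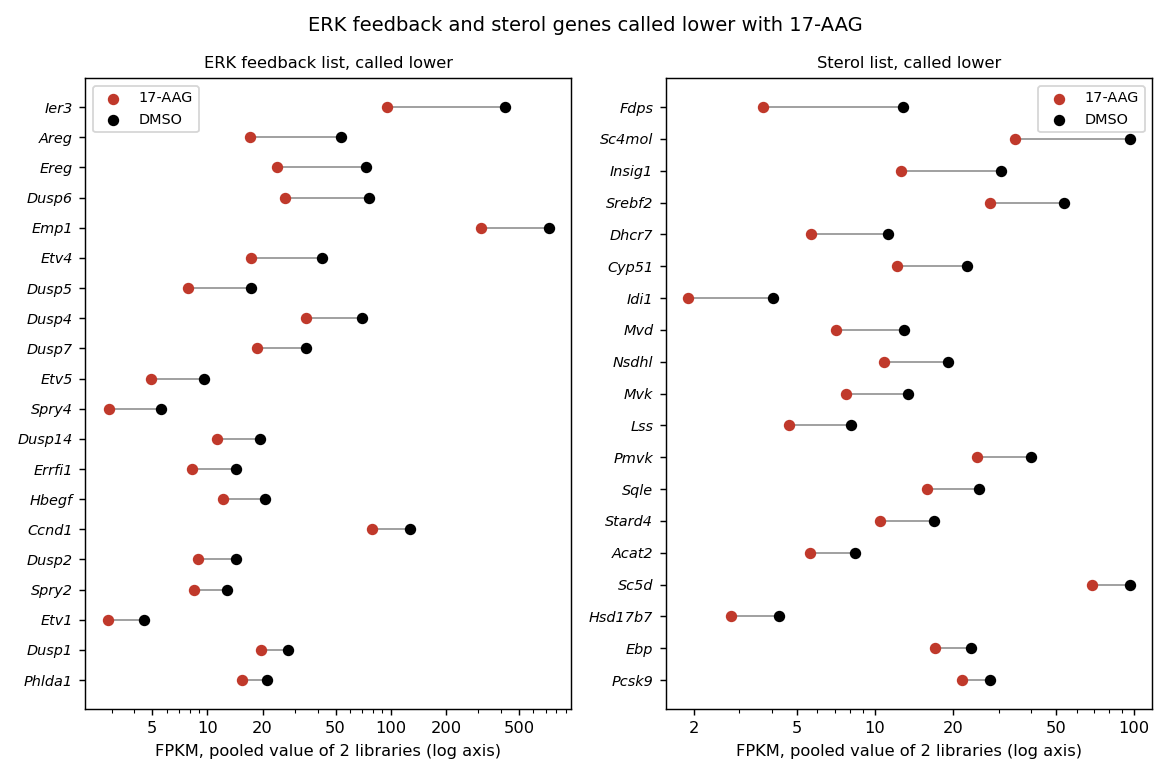
FPKM of each gene with 17-AAG (red) and DMSO (black), pooled over 2 libraries, on log axes, for ERK feedback genes that fell (left) and sterol genes that fell (right). The gap is widest for Ier3 (effect -2.13) on the left and Fdps (-1.56) on the right.

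Fatty acid genes did not fall with the sterol genes. Of 29 genes 3 rose and 3 fell, with a median of -0.07 (matched -0.04). Fasn (0.30), Acaca (-0.12), Scd2 (-0.17) and Srebf1 (0.11, shared locus) were not called, and Scd1 rose (0.40). The list held extremes at both ends: Fabp4, a fatty acid carrier, fell to 55.7 FPKM with 17-AAG against 472 FPKM with DMSO, and Angptl4, an inhibitor of lipoprotein lipase, rose to 10.1 FPKM with 17-AAG against 1.80 FPKM with DMSO. Fabp4 is known best from adipocytes, and of 9 adipocyte markers it is the only one in the table, Adipoq, Plin1 and Cidec not being listed.

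Matrix genes rose. Of 37 genes of collagens, laminins and basement membrane 22 rose and 1 fell (median 0.57, matched 0.47). Fibrillar and network collagens were among those that rose. Col6a1 rose to 88.4 FPKM with 17-AAG against 46.7 FPKM with DMSO. Col4a1 rose to 69.6 FPKM with 17-AAG against 50.1 FPKM with DMSO, and Col5a1 to 28.5 FPKM with 17-AAG against 18.9 FPKM with DMSO, whereas Col1a1 rose from a low level, at 3.95 FPKM with 17-AAG and 0.620 FPKM with DMSO. Col3a1 was not called (0.01), and Col5a3 fell (-0.40). Sparc, a collagen-binding protein, rose to 439 FPKM with 17-AAG against 216 FPKM with DMSO. The laminin gene Lamb2 rose to 16.97 FPKM with 17-AAG against 6.44 FPKM with DMSO, and perlecan, Hspg2, to 24.4 FPKM with 17-AAG against 13.2 FPKM with DMSO. Enzymes that modify collagen rose as well, Plod1 (1.13) and P4ha2 (0.76), together with Serpinh1 (0.52), the collagen chaperone HSP47, which is also a heat shock gene. Transcripts of this list are long, with a median of 5564 bases.

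Genes of matrix proteases and their inhibitors, counted together, leaned the other way. Of 28 matrix protease and inhibitor genes 13 fell and 3 rose (median -0.24, matched -0.21). Genes of the urokinase system fell: the protease gene Plau to 34.9 FPKM with 17-AAG against 75.9 FPKM with DMSO and its receptor Plaur to 45.3 FPKM with 17-AAG against 94.98 FPKM with DMSO. Stromelysin Mmp3 fell to 3.05 FPKM with 17-AAG against 14.2 FPKM with DMSO. Mmp9 fell to 5.73 FPKM with 17-AAG against 9.02 FPKM with DMSO, and cathepsin L, Ctsl, to 516 FPKM with 17-AAG against 781 FPKM with DMSO. Mmp11 rose (0.75), and Mmp2 (0.25), Mmp14 (0.07) and Timp2 (-0.08) were not called. Of 25 integrins and adhesion receptors 5 rose and 6 fell, with Itga6 (-1.002), Itgb3 (-0.73) and Cd44 (-0.50) lower and Mcam (0.96) and Itgb7 (0.69) higher.

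In the TGF-beta list 8 of 30 genes rose and 1 fell (median 0.14, matched 0.08). The inhibitors of differentiation Id3 and Id2, direct targets of BMP signals, led it: Id3 (mm9 chromosome 4, 135699736 to 135701307) rose to 236 FPKM with 17-AAG against 50.02 FPKM with DMSO and Id2 to 94.9 FPKM with 17-AAG against 28.9 FPKM with DMSO, while Id1 was not called at 135 FPKM with 17-AAG and 153 FPKM with DMSO. Tgfbi, a secreted target, rose to 13.4 FPKM with 17-AAG against 4.01 FPKM with DMSO. The ligand gene Tgfb1 fell (-0.64) and Tgfb3 rose (0.44), Smad3 rose (0.41), and Smad7, a feedback target, was not called (0.14). Among 21 YAP and TEAD targets and factors 8 rose and 4 fell. The targets Amotl2 (1.62), Ankrd1 (1.36), Ctgf (1.005) and Cyr61 (0.80) rose, and Wwtr1, which encodes the coactivator TAZ, fell to 41.7 FPKM with 17-AAG against 91.3 FPKM with DMSO. Ankrd1 and Ctgf were under 1 FPKM with DMSO.

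Actin genes moved in both directions. Of 34 genes of the actin cytoskeleton 5 rose and 9 fell, a share of risen genes close to that of all genes, with a median of -0.14 that became 0.05 after matching. Among those that rose, the myosin heavy chain gene Myh9 stood at 105 FPKM with 17-AAG and 62.96 FPKM with DMSO. The filamin gene Flnc was at 32.8 FPKM with 17-AAG and 15.9 FPKM with DMSO, and the light chain gene Myl9 at 6.51 FPKM with 17-AAG and 0.797 FPKM with DMSO. Another light chain gene, Myl6, fell to 89.3 FPKM with 17-AAG against 167 FPKM with DMSO. The actin monomer-binding genes Tmsb4x and Pfn1 fell to 257 FPKM with 17-AAG against 618 FPKM with DMSO and to 568 FPKM with 17-AAG against 859 FPKM with DMSO. Pfn1 and Tmsb4x are among the most abundant transcripts, a level at which falls were frequent. Tubulins were mostly lower: 11 of 17 genes fell and 2 rose (median -0.45, matched -0.26), with Tubb6 at 103 FPKM with 17-AAG and 187 FPKM with DMSO and Tubb4b at 154 FPKM with 17-AAG and 253 FPKM with DMSO, while Tubb5 was not called (-0.24). Tuba1a, Tuba1b and Tuba1c are near-identical and uncertain; their effects were -0.82, -0.45 and -0.81.

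Cell cycle genes were lower by small amounts or not called. In the list of G2 phase and mitosis 29 of 58 members fell and 0 rose, and of 50 genes of DNA replication and nucleotide supply 24 fell and 0 rose. Their medians were -0.37 and -0.36, and the matched medians -0.24 and -0.19. No member of either list fell by an effect of 1. The securin gene Pttg1 fell to 203 FPKM with 17-AAG against 361 FPKM with DMSO. The checkpoint gene Mad2l1 fell to 92.7 FPKM with 17-AAG against 159 FPKM with DMSO, and Cdk1 to 158 FPKM with 17-AAG against 240.4 FPKM with DMSO. In the replication list the helicase cofactor genes Gins1 (-0.80) and Cdc45 (-0.69), the reductase subunit Rrm2 (-0.75) and Pcna (-0.59) fell, whereas none of the helicase genes Mcm2, Mcm3, Mcm4, Mcm5, Mcm6 and Mcm7 was called, their effects lying between -0.26 (Mcm5) and -0.11 (Mcm6). Mki67, a proliferation marker, was not called, at 23.7 FPKM with 17-AAG and 20.8 FPKM with DMSO, nor were Foxm1 (-0.03), Top2a (-0.18) and Plk1 (-0.31). Of 26 G1 phase regulators 8 fell and 0 rose, among them Cks1b (-0.91), Skp2 (-0.49) and the inhibitor gene Cdkn1a (-0.76); E2f1 (0.14) and Ccne1 (0.04) were not called.

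Targets of p53 gave no common direction. Of 32 genes 9 rose and 4 fell (median 0.12, matched 0.12). Trp53 rose to 53.95 FPKM with 17-AAG against 37.6 FPKM with DMSO, but its targets Cdkn1a and Mdm2 fell, to 36.6 FPKM with 17-AAG against 62.8 FPKM with DMSO and to 41.9 FPKM with 17-AAG against 59.4 FPKM with DMSO. The stress sensors Gadd45b (1.17) and Gadd45g (1.21) rose, and Bax (-0.05) and Phlda3 (-0.10) were not called. Of 35 genes of the BCL2 family, caspases and inhibitors 2 rose and 9 fell. Mcl1, a survival protein, fell to 43.5 FPKM with 17-AAG against 82.9 FPKM with DMSO. The necroptosis effector Mlkl fell to 60.8 FPKM with 17-AAG against 98.4 FPKM with DMSO. The BH3-only genes Bmf (1.12) and Bbc3 (0.37) rose, and Bcl2l11 (0.22) and Pmaip1 (0.24) were not called.

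Complexes built from short, abundant transcripts were lower, and much of that difference was gone after matching for length and level. The bins include the complexes' own genes, so how far other genes share the difference was not tested. Of 43 proteasome genes 25 fell and 0 rose, with a median of -0.39 and a matched median of -0.08; Psma7 was at 518 FPKM with 17-AAG and 860.2 FPKM with DMSO. Of 79 subunits of the respiratory chain and ATP synthase 39 fell and 0 rose, and the median of -0.37 became -0.02. Of 80 cytosolic ribosomal protein genes 33 fell and 2 rose, and the median of -0.31 turned to 0.06, a reversal of sign. Mitochondrial ribosomal proteins kept more of their difference, with 42 of 75 fallen and 0 risen, a median of -0.39 and a matched median of -0.15. The values of Rpl27 (3.55 FPKM with 17-AAG against 30.2 FPKM with DMSO) and Cox5b (11.3 FPKM with 17-AAG against 50.4 FPKM with DMSO), far from their families, are uncertain, since ribosomal protein and cytochrome oxidase genes have many processed copies in the genome. Of 11 host transcripts of small nucleolar RNAs 5 rose, 6 were not called and 0 fell (median 0.47). Over the 9 with a known length the matched median was 0.63. Snhg5 (0.53) and Snhg4 (0.62) were among those that rose, and Snhg12 (1.57) and Snhg1 (0.83) have loci shared with the small RNAs they carry and are uncertain.

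Genes answering to NRF2 and other redox genes were divided. Of 48 genes 9 rose and 17 fell, and their median of -0.19 became 0.03 after matching. Besides Nqo1, Akr1b8 fell to 26.4 FPKM with 17-AAG against 59.7 FPKM with DMSO and glutathione reductase Gsr to 51.3 FPKM with 17-AAG against 81.4 FPKM with DMSO. Txnip, an inhibitor of thioredoxin, rose to 40.7 FPKM with 17-AAG against 16.8 FPKM with DMSO. The glutathione transferase Gsta4 rose to 13.5 FPKM with 17-AAG against 5.95 FPKM with DMSO, and Gstt1 to 62.4 FPKM with 17-AAG against 39.6 FPKM with DMSO. Hmox1 (0.31), Gclm (-0.19), Srxn1 (-0.24) and Txnrd1 (-0.14), often used to read NRF2, were not called. Autophagy and lysosome genes gave 5 risen and 8 fallen of 56, with the receptor gene Sqstm1 higher (0.40), and glycolysis and hypoxia genes 4 risen and 8 fallen of 44, with Vegfa higher (0.68) and Egln3 lower (-0.86).

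Several of the largest changes belonged to none of these pathways. S100a8, a calcium-binding protein of inflammation, fell to 28.5 FPKM with 17-AAG against 241 FPKM with DMSO, and of 9 S100 genes 6 fell and 1 rose (median -0.65, matched -0.19); S100a4 was at 879 FPKM with 17-AAG and 1695 FPKM with DMSO, S100a10 at 699 FPKM with 17-AAG and 1470.5 FPKM with DMSO and S100a6 at 2759 FPKM with 17-AAG and 4344 FPKM with DMSO. S100a8 is also known from myeloid cells. Of a wider list of 24 myeloid markers 5 are in the table, with a summed level of 64.9 FPKM with 17-AAG and 299.6 FPKM with DMSO, of which S100a8 gave 28.5 FPKM with 17-AAG and 241 FPKM with DMSO. Cd68 fell (-1.23), and Lyz2 (0.23) and Cd14 (-0.38) were not called. Cd74 rose (0.83), at 1.55 FPKM with 17-AAG and 0.430 FPKM with DMSO. It was below the floor with DMSO and entered only through 17-AAG, so its rise adds no evidence. The part of such cells in the fall of S100a8 was not tested. Tm4sf1, a surface protein of motile cells, fell to 36.96 FPKM with 17-AAG against 181 FPKM with DMSO. The uridine phosphorylase gene Upp1 fell to 54.7 FPKM with 17-AAG against 240.3 FPKM with DMSO, and the natriuretic peptide gene Nppb to 24.4 FPKM with 17-AAG against 101 FPKM with DMSO. Rgcc, a cell cycle regulator, rose to 13.5 FPKM with 17-AAG against 3.10 FPKM with DMSO. Tmem140 (2.30), Pisd-ps3 (1.84) and Evi2a (-2.05) share loci with other genes and are uncertain. Values of small RNAs in libraries of long RNA are uncertain: Snord89 is listed at 0 with 17-AAG and at 1175 FPKM with DMSO, and Mir682 at 2382 FPKM with 17-AAG and 8922 FPKM with DMSO.

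The series' other compound, Enniatin A (EnnA, 7.4 µM for 24 h), was compared with the same DMSO libraries in a separately normalized table, in which 49.7% of 10557 genes at 1 FPKM or more were called, 24.8% higher and 24.9% lower. The DMSO values of the 17-AAG table are 1.10 times those of that table at the median gene. Since the controls are shared and the tables were scaled apart, values are given side by side without a test. For Ifit1 the EnnA table lists 9.87 FPKM with EnnA and 5.65 FPKM with DMSO, and for Isg15 56.5 FPKM with EnnA and 37.96 FPKM with DMSO; both are called higher there, by effects of 0.71 and 0.56, against 3.20 and 1.996 with 17-AAG. Other interferon-linked genes that rose with 17-AAG went apart with EnnA. Rsad2 (1.04) and Oasl1 (1.13) were called higher there, Ifit2 (-0.66), Oas3 (-0.76) and Irf7 (-0.91) lower, and Herc6 (-0.22) was not called. Vdr was not called with EnnA, at 0.978 FPKM with EnnA and 0.949 FPKM with DMSO, nor was Id3, at 57.2 FPKM with EnnA and 45.7 FPKM with DMSO. Angptl4 was called in opposite directions, with 0.364 FPKM with EnnA and 1.64 FPKM with DMSO. Among the largest falls, S100a8 (60.7 FPKM with EnnA and 220.3 FPKM with DMSO), Fabp4 (148 FPKM with EnnA and 431 FPKM with DMSO) and Tm4sf1 (40.3 FPKM with EnnA and 165 FPKM with DMSO) were also called lower with EnnA, and Klf2 was not called (19.02 FPKM with EnnA and 17.5 FPKM with DMSO).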

How the data were processed

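RNA sequencing libraries of E0771 cells, 2 with 17-AAG and 2 with DMSO, were grouped by their titles and treatment labels. STAR, Cufflinks and Cuffdiff were used with the build mm9, per the submitters' processing notes, which give no versions. The authors' deposited table holds 1 FPKM value per group, the unit that Cuffdiff writes, pooled over 2 libraries, so the depth per library is unknown and neither a count test nor an error per library could be had. Log2 fold changes in the deposited table are DMSO over 17-AAG, and their sign was turned here so that positive means higher with 17-AAG; 2 genes differed by more than 0.1 from the ratio of the FPKM columns. The authors' p-value reaches no lower than 5e-05 in the deposited table. The deposited q-value is its Benjamini-Hochberg adjustment over all 11305 genes. FPKM depend on the length and abundance of transcripts and on the authors' scaling, which no header or label describes. Loci are in mm9 as deposited, with no statement of the base from which a start is counted.

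From these the effect was computed with a pseudocount of 1, genes with less than 1 FPKM in both groups were left out, and the implied standard error was the size of the log2 ratio over the normal quantile that the authors' p-value (2-sided) corresponds to. The computations were tested on simulated data whose p-values were made with the same normal formula. That checks the arithmetic only, and not whether the formula holds for the authors' p-values. Transcript lengths were those of the longest GENCODE vM21 transcript of a symbol, for 10713 genes (99.2%). Such a length can exceed that of the transcript expressed in the cells. Promoter windows came from RefSeq. Genes whose locus is shared with another gene of the table (1217) or that have near-identical copies are called uncertain where named. Computations used Python 3.11.15, pandas 2.3.3, numpy 2.4.6, scipy 1.17.1 and matplotlib 3.10.9.

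The 46 gene lists and 31 name families, and the genes compared, were chosen with earlier results of these data known, so no test over a list is given and counts are descriptions. Genes were named by a rule: the 15 with the largest effect in each direction among called genes at 5 FPKM or more, up to 8 called members of each list in each direction, uncalled members at 3 FPKM or more, and a set given by name. Outside it, Hspe1, Mvd, Sqle, Edem1, Etv5, Spry2, Spry4, Hbegf, Herc6, Ifit2, Mx2, Oas1b, Oas3, Usp18, Col4a1, Mmp9, Tuba1b, Epcam and Foxa1 were chosen after their values were seen. Alternatives were a q under 0.01, an effect of at least 1, pseudocounts of 0.1 and 5, other FPKM floors, leaving out shared loci, and effects relative to all genes or to genes of like level; the matching for length and level was added after seeing the data. Values of some genes, which the counts and medians of their lists include, are not reported here, in the text or the plots of single genes.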

Additional observations from a re-analysis of the deposited data

How the results depend on the processing

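No paired analysis was possible because the deposited table gives 1 pooled value per gene and group, and for the same reason no library could be left out. At a q under 0.01, 1038 genes were higher and 1166 lower, and the members called lower numbered 14 for the proteasome, 19 for cytosolic and 24 for mitochondrial ribosomal proteins, while of the 274 zinc finger genes of the Zfp family 29 were higher and 4 lower, against 58 and 15 at a q under 0.05. With an effect of at least 1 required, 157 genes were higher and 104 lower. Members called higher were then 5 for heat shock genes, 27 for antiviral effectors, 5 for collagens and laminins and 0 for the Zfp family. Members called lower were then 7 for ERK feedback, 5 for chemokines, 4 for sterols, 3 for matrix proteases, 2 each for cytosolic ribosomal proteins and the respiratory chain and 1 each for the unfolded protein response and glucocorticoid targets. They were 0 for replication, mitosis, the proteasome, mitochondrial ribosomal proteins and the Zfp family. With a pseudocount of 5 the ERK feedback median was -0.47.

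Relative to genes of the same bin of level, median effects were 0.49 for heat shock genes, -0.11 for the unfolded protein response, -0.14 for glucocorticoid targets, -0.19 for mitosis, -0.15 for the proteasome, -0.067 for cytosolic and -0.21 for mitochondrial ribosomal proteins and -0.16 for the respiratory chain. Relative to genes of the same bins of length and level, they were 0.52 for heat shock genes, -0.16 for the unfolded protein response, -0.19 for replication, -0.076 for the proteasome, 0.057 for cytosolic and -0.15 for mitochondrial ribosomal proteins and -0.016 for the respiratory chain. Of the called genes named, B2m (0.086) and Bag1 (0.11) reversed under that matching, and the cause was not tested. Leaving out shared loci, raising the floor to 5 FPKM and lowering the pseudocount to 0.1 moved none of the medians and counts of these lists beyond the limits used (1.5 times for a count). Depth limits low genes most, but how far cannot be stated from pooled FPKM.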
